A study of Mus musculus with 4 samples.

Results

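The Zfp zinc finger genes were examined by sequencing total RNA from mouse embryonic fibroblasts (MEF cells), a culture of connective tissue cells taken from embryos. All cells were wild-type. The untreated group had 2 libraries, and the genistein group, exposed to 50 µM of this plant isoflavone for 24 h, had 2 libraries. The study asked how genistein affects transcription of the major satellite repeat, and the Zfp genes were read from the same count table. Members were chosen by name and by level: all gene rows named Zfp followed only by a number, selected on a raw count summed over the 4 libraries of 400 or more. This rule took 264 of the 47937 gene rows. The table held 374 rows with such a name, of which 110 fell under the minimum and 20 of those had no count at all. The rule used the level and not the direction of change. A member near the minimum can still have entered through its higher group: 7 members had under 200 raw counts in the untreated pair and 2 had under 200 in the genistein pair. Zfp759 (400 raw counts) and Zfp882 (407) lay just inside the minimum, and Zfp551 (396) and Zfp689 (380) just outside.

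Most Zfp genes encode C2H2 zinc finger proteins, in which tandem fingers each read a few bases of DNA. Many of them carry a KRAB box at the amino end, a short domain that binds the co-repressor Trim28 (KAP1). Trim28 in turn brings the histone H3 lysine 9 methyltransferase Setdb1, HP1 proteins (Cbx1, Cbx3 and Cbx5) and the NuRD remodelers Chd3 and Chd4 to the bound site. KRAB zinc fingers are known for silencing endogenous retroviruses and other retroelements and for protecting imprinted loci, and they lie in large clusters of similar genes that grew by duplication. The symbol Zfp is a naming convention, and it also covers proteins that bind RNA, ubiquitin or the cytoskeleton.

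A KRAB box was found by a search of the translated coding sequence in 150 members, and in the other 114 the search found none. The search counted matches at 20 fixed positions of the 41-residue A box and called a box at 10 or more. The highest score without a call was 8, for Zfp37, and the next was 6. Zfp37 and Zfp180 are among the 114, though both stood on the list used here as KRAB genes. The search can thus miss a box, and members described below as without one may include KRAB genes. The median number of C2H2 fingers was 12 with a KRAB box and 8 without, and the largest number was 36. No C2H2 finger was found in 9 members, among them Zfp365, Zfp703 and Zfp36. By annotation 263 members were protein-coding and 1, Zfp469, was a long intergenic non-coding RNA. Because the family grew by duplication, the share of 100-base words that each member's transcripts have in common with those of another gene was also counted. It exceeded 10% in 22 members, 19 of them with a KRAB box, and reached 99.3% in Zfp935, 79.9% in Zfp966 and 71.9% in Zfp993. Reads of these members can be divided between copies, so their counts are uncertain. Exons on the opposite strand overlapped 62 members, by over 10% of the exon length in 22 of them, and the strand setting of the read counting is not given in the sources used here.

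Promoter sequences are shown because KRAB members share words in them. RefSeq promoters on GRCm38.p6 (250 bases before the gene start to 50 after) were matched by symbol for 218 members, 131 of them with a KRAB box. Among words of 8 letters found in at least 15 of these KRAB promoters on either strand, AATGTAGT (reverse ACTACATT) was the most over-represented against all 27025 promoter symbols. It stood in 19 of 131 KRAB promoters (14.5%), in 5 of 87 promoters of the other members (5.75%) and in 1.35% of all. GAGTGACA (reverse TGTCACTC) came next. It stood in 24 KRAB promoters (18.3%), in 3 of the other members' (3.45%) and in 1.86% of all. Both words were picked after the sequences had been searched, and a match is a description and not a binding site. The stretches below show the first word in 5 members of one gene cluster and in 2 members of another chromosome. They are read 5′ to 3′ in the direction of the gene, with the word in capitals.
Zfp458 (chr13:67269139-67269190, minus strand): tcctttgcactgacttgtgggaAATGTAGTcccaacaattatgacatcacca
Zfp953 (chr13:67360614-67360665, minus strand): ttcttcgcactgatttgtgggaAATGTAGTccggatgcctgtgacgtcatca
Zfp595 (chr13:67332578-67332629, minus strand): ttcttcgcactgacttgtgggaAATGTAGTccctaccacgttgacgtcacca
Zfp759 (chr13:67128158-67128209, plus strand): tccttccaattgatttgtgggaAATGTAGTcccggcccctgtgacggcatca
Zfp85 (chr13:67755185-67755236, minus strand): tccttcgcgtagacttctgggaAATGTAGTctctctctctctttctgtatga
Zfp790 (chr7:29815950-29816001, plus strand): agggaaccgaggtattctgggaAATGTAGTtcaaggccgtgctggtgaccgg
Zfp383 (chr7:29908454-29908505, plus strand): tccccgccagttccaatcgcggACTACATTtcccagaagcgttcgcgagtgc

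In 15 of the 18 KRAB members with a full stretch inside the window, the word was extended by the letters GGGA on its 5′ side, or by TCCC after the reverse word. The first base of the word lay between 224 bases before and 11 bases after the gene start, with a median of 60 before. The letters ACTACA open the known binding element of Zfp143, an activator that is itself a member. The second word is shown in members of chromosomes 2, 7 and 17, where longer runs of letters recur across genes.
Zfp442 (chr2:150451563-150451614, minus strand): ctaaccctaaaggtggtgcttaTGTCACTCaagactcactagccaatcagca
Zfp970 (chr2:177464631-177464682, plus strand): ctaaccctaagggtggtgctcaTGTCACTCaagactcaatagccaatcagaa
Zfp975 (chr7:42692821-42692872, minus strand): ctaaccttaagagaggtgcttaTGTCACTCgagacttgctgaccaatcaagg
Zfp945 (chr17:22867122-22867173, minus strand): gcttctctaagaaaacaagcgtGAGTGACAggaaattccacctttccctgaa
Zfp994 (chr17:22225682-22225733, minus strand): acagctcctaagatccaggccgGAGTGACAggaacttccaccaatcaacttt
Zfp820 (chr17:21845786-21845837, minus strand): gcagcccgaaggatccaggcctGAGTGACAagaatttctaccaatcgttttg

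The stretch of Zfp442 was identical over its 52 bases to that of Zfp937, and the stretch of Zfp970 to those of Zfp966 and Zfp971. In 14 of 23 KRAB members with a full stretch, the letters CCAATCA followed within the printed window. They hold the CCAAT box, a common promoter element, which on either strand was found in 57.3% of the KRAB promoters, 43.7% of the other members' and 41.1% of all. The GC box (GGGCGG, either strand) was distributed the other way, in 35.9% of KRAB promoters, 65.5% of the other members' and 38.2% of all.

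The untreated and genistein libraries held 28591958 to 31464284 counts over genes and repeats. Values below are normalised read counts, which are raw counts scaled to a common library size, and log2 fold changes are genistein over untreated. An entry was called when its adjusted p was under 0.05 in edgeR's quasi-likelihood test over all 17358 genes and repeats tested, and it was past all thresholds when the log2 fold change was also beyond 1 in either direction and the mean normalised count over 100. Across members, log values correlated with r = 0.996 between the libraries of each group and with r of 0.948 to 0.951 between groups. The labels do not say whether the 2 libraries of a group came from separate cultures, so the tests measure the spread between these libraries, which may be technical. Of 10 fibroblast markers 9 were tested, and their summed normalised count was 432965 to 444697 untreated and 412646 to 421861 with genistein, while Thy1 had no counts in any library. Of the 9 tested, 7 fell, against 38.2% of all genes, and 2 (Dcn and Fn1) rose, against 33.5%. Their median log2 fold change was -0.24. The defining markers Ptprc, Cd3e and Adgre1 of immune cells, Epcam of epithelium, Cdh5 of endothelium and Rbfox3 of neurons had between 0 and 1.01 normalised counts. The whole lists summed to 65.6 to 84.9 untreated and 211 to 214 with genistein for 4 immune markers (Cd68 rose), to 19.0 to 26.5 and 76.0 to 84.0 for 3 endothelial markers (Kdr rose), to 452 to 462 and 131 to 137 for 4 epithelial markers (Krt8 and Krt18 fell) and to 856 to 912 and 742 to 775 for 2 neural markers (Tubb3 fell). Their part in the results was not tested. In bulk RNA, fewer cells of a type and less RNA per cell cannot be told apart.

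With genistein, Zfp genes changed in both directions and mostly by small amounts. Of the 264 members, all of which were kept by the filter on low counts, 102 rose, 74 fell and 88 did not pass the test. Among all 16240 genes tested, 33.5% rose and 38.2% fell. With library totals as the only scaling, 126 members rose and 59 fell. The median log2 fold change was 0.10 over the members and -0.03 over all genes, with a range over members of -1.78 to 1.57. In 208 members (78.8%) the log2 fold change lay within 0.5 of 0, against 55.5% of all genes. Both genistein libraries lay above both untreated libraries in 132 members and below them in 91, against 40.7% and 44.6% of all genes. Past all thresholds 5 members were higher and 1 was lower, against 3.92% and 4.16% of all genes, and 2 of the 5 entered the set through their genistein counts.

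More KRAB members rose than fell, and in this scaling more of the other members fell than rose. Among the 150 KRAB members, 68 rose, 27 fell and 55 did not pass the test, with a median log2 fold change of 0.16. Among the 114 other members, 34 rose, 47 fell and 33 did not pass, with a median of -0.03. Relative to the median of all genes, the KRAB median stood 0.19 higher and that of the other members 0.01 higher. These distances changed by no more than 0.01 when RLE factors, library totals, or genes alone set the scale. Such rescaling shifts all genes by nearly the same amount, so it could not test the distances. Without the filter on low counts the distances were 0.12 for KRAB members and -0.07 for the others, and the distance of the others lay on either side of 0, from -0.01 to 0.02, when single libraries were left out. The absolute median of the other members depended on the scale: it turned to 0.04 with library totals, where 43 rose and 39 fell, and to 0.02 with genes alone. No test of the difference between the 2 kinds of member was made. The KRAB members had lower counts, with a median raw sum of 1483 against 2651. In each of 3 ranges of raw sum (400 to under 1000, 1000 to under 3000, and 3000 or more) the KRAB median was the higher, with 0.22, 0.16 and 0.09 against 0.04, -0.03 and -0.05 for the other members. Protein-coding genes of the same ranges had medians of 0.16, -0.04 and -0.15.

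**Figure D1:**
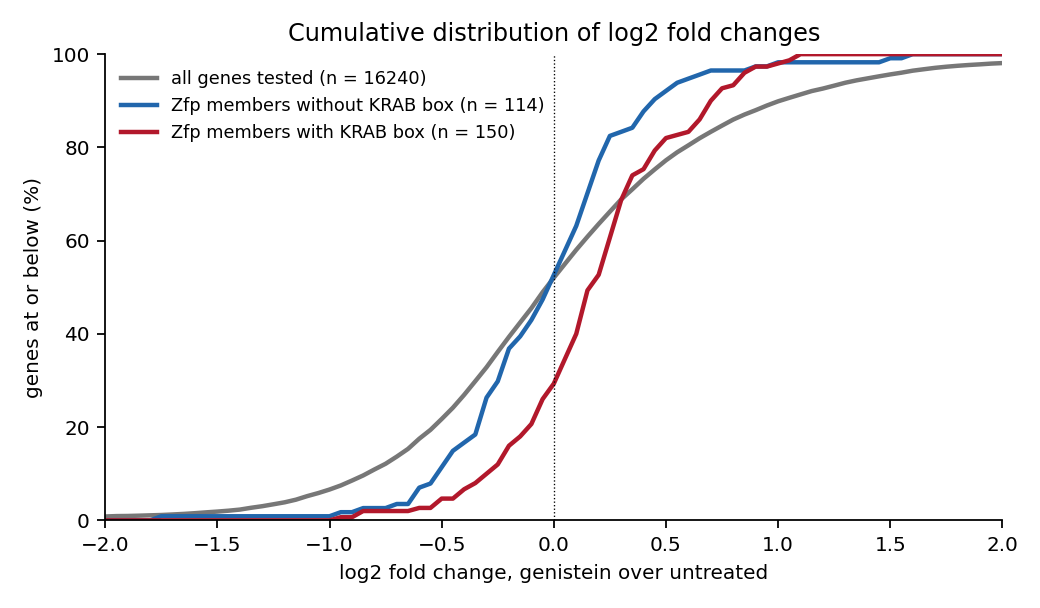
Share of genes (vertical axis, percent) whose log2 fold change of genistein over untreated lies at or below the value on the horizontal axis, drawn from -2 to 2. At 0 the curve of KRAB members has reached 29.3%, that of the other members 52.6% and that of all genes 52.0%.

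The summed normalised count of the members hardly moved, with 211525 and 212664 in the untreated and 211634 and 213382 in the genistein libraries. On this scale its parts moved apart. The KRAB members summed to 75383 and 75764 untreated and to 82745 and 83848 with genistein, a log2 ratio of 0.14. The other members summed to 136142 and 136900 untreated and to 128889 and 129534 with genistein, a log2 ratio of -0.08. In neither part did the groups overlap, and 2 libraries a group allow no two-sided p under 0.333 in an exact permutation test. As a share of the raw counts of genes, without regard to repeats, all members took 0.782% and 0.794% untreated and 0.840% and 0.853% with genistein. On that scale the other members took 0.503% and 0.511% untreated and 0.512% and 0.518% with genistein, so the direction of their sum depends on the scale, while that of the KRAB members does not, with 0.279% and 0.283% untreated and 0.329% and 0.335% with genistein.

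The number of fingers ran along with the KRAB box. Medians were -0.05 for the 43 members with 0 to 4 C2H2 fingers, 0.04 for 68 members with 5 to 9, 0.12 for 95 members with 10 to 14 and 0.15 for 58 members with 15 or more. In the order of these groups, 39.5%, 29.4%, 43.2% and 41.4% rose, and 46.5%, 35.3%, 22.1% and 15.5% fell. Among all members 38.6% rose and 28.0% fell, and among all genes 33.5% and 38.2%. The first group held both extremes, with Zfp365 and Zfp703 at the top and Zfp428 at the bottom.

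Among the members past all thresholds, Zfp365 rose most. Zfp365 is known as a p53 target that protects telomeres and fragile sites, and it has no KRAB box. Its normalised count was 986 and 941 in the untreated and 2841 and 2897 in the genistein libraries. This is a log2 fold change of 1.57, with a standard error (SE) of 0.04 and an adjusted p of 2.1e-14 by edgeR. Zfp703, a transcriptional cofactor of the NET family, went from 212 and 245 to 694 and 580.0, with the genistein libraries far above the untreated ones. Its log2 fold change was 1.49 (SE 0.10, adjusted p = 9.4e-10), and opposite-strand exons cover 13.5% of its exons. Zfp503, the related NET protein, went the other way, from 860.1 and 868 to 619 and 563 (log2 fold change -0.55, SE 0.06, adjusted p = 7.3e-07).

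Of the 150 KRAB members, 3 passed all thresholds. Zfp945, with 18 fingers, lies on chromosome 17 at 22846697 to 22867134 (GRCm38), and its promoter stretch with GAGTGACA is printed above. Its counts of 781 and 817 went to 1687 and 1654 (log2 fold change 1.06, SE 0.05, adjusted p = 1.6e-11). Zfp458, with 20 fingers and the AATGTAGT stretch above, went from 68.9 and 79.4 to 155 and 153 (log2 fold change 1.05, SE 0.14, adjusted p = 4.4e-06). Zfp791, with 15 fingers, went from 74.9 and 73.0 to 157 and 145 (log2 fold change 1.03, SE 0.14, adjusted p = 5.5e-06). Zfp458 and Zfp791 are near both limits, and both are among the 7 members with under 200 raw counts in the untreated pair, so they entered the set through the genistein libraries and their values are given as a description. Without untreated replicate 1 the log2 fold change of Zfp458 was 0.95, and without genistein replicate 1 that of Zfp791 was 0.97. The groups did not overlap in any of these 3 genes, but this was a condition for naming them.

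Only Zfp428 was past all thresholds on the lower side. It encodes a short protein in which 1 C2H2 finger was found, and its counts went from 349 and 323 to 103 and 92.1. The log2 fold change was -1.78 (SE 0.11, adjusted p = 4.7e-10), and exons of the opposite strand cover 17.7% of its exons. Just short of the fold threshold, and named after their values were seen, stood Zfp593 and Zfp1 on the lower side and Zfp185 and Zfp688 on the higher side. Zfp593, of which 77.9% overlaps opposite-strand exons, went from 572 and 605 to 302 and 289 (log2 fold change -0.99, SE 0.07). Zfp1, a KRAB member, went from 347 and 326 to 172 and 170.0 (log2 fold change -0.98, SE 0.10). Zfp185, whose product is a LIM-domain protein of the actin cytoskeleton, went from 299.7 and 247 to 508 and 582 (log2 fold change 0.99, SE 0.10). Zfp688, with a KRAB box and 2 fingers, went from 120 and 125 to 233 and 239.9 (log2 fold change 0.95, SE 0.11).

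**Figure D2:**
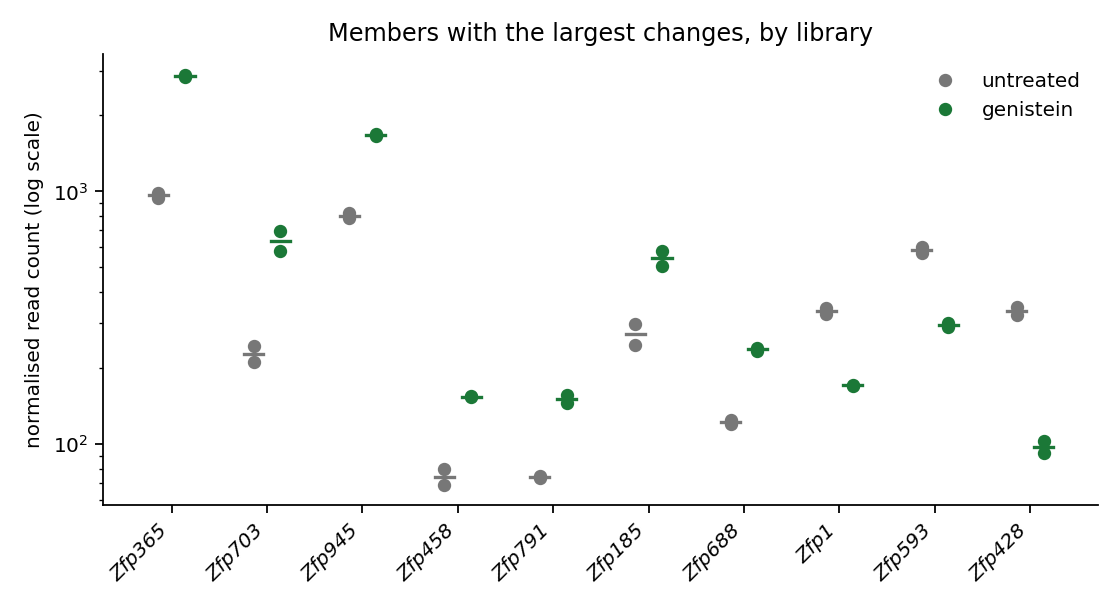
Normalised read count (vertical axis, logarithmic) of the 6 members past all thresholds and of 4 members just short of them, with each point a library and each bar the mean of 2 libraries. In each gene the genistein libraries (green) lie wholly above or wholly below the untreated libraries (grey), a condition for naming the 6. Zfp365 is the highest, at 2841 and 2897.

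Several KRAB genes known for retroelements or imprints did not pass the test. Zfp809, which binds the primer binding site of murine leukemia virus and starts its silencing, had 668 and 669 counts untreated and 642 and 633 with genistein (log2 fold change -0.07, SE 0.06, adjusted p = 0.30). Zfp57, a guardian of imprinted loci, had 1380 and 1438 counts untreated and 1376 and 1350.3 with genistein (log2 fold change -0.05, SE 0.05, adjusted p = 0.38). Zfp445, the second known imprint factor, had 1560.4 and 1494 counts untreated and 1627 and 1671 with genistein. Its log2 fold change of 0.11 (SE 0.04, adjusted p = 0.037) lost the call under 6 of the 10 other fits. Zfp932, which represses endogenous retroviruses and shares 18.5% of its words with other genes, had a log2 fold change of 0.02 (SE 0.07, adjusted p = 0.77).

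Others of this kind fell. Zfp961 went from 708 and 726 to 357 and 439 (log2 fold change -0.85, SE 0.08, adjusted p = 7.8e-08). Zfp568, which represses a placental promoter of Igf2, went from 1545 and 1654 to 1291 and 1221 (log2 fold change -0.35, SE 0.05, adjusted p = 1.2e-05). Zfp110, a partner of the p75 neurotrophin receptor, fell from 892 and 786 to 720.2 and 729 (log2 fold change -0.21, SE 0.07, adjusted p = 0.0083), a call lost with library totals and without untreated replicate 1. Its relative Zfp369, with 659 and 688 counts untreated and 738 and 726 with genistein, did not pass the test (log2 fold change 0.12, SE 0.06, adjusted p = 0.078), though it did with genes alone (0.16, adjusted p = 0.021) and with library totals (0.19, adjusted p = 0.0095). Zfp180 fell by 0.22 on the log2 scale (SE 0.06, adjusted p = 0.0030). Zfp37 had a log2 fold change of -0.20 (SE 0.11, adjusted p = 0.12), and -0.33 without untreated replicate 2 (adjusted p = 0.016). No box was found by this search in either of the last pair.

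A list of 40 zinc finger genes with known roles, KRAB genes included, held 35 members, of which 7 rose, 18 fell and 10 did not pass the test. Among all members 38.6% rose and 28.0% fell, and among all genes 33.5% and 38.2%. The share that fell depended on level: among protein-coding genes it was 26.4% at a raw sum of 400 to under 1000. It was 40.3% at 1000 to under 3000 and 53.4% at 3000 or more. Members of the list lay in each of these ranges, and no comparison matched for level was made for it. Zfp819, Zfp708, Zfp429, Zfp423 and Zfp42 of that list were under the count minimum. The 5 members with the highest untreated count per kilobase of exon were Zfp207 (1271 per kilobase), Zfp106 (984), Zfp706 (979.6), Zfp281 (663) and Zfp740 (629), none with a KRAB box. All 5 fell, and all 5 had a raw sum of 3000 or more. In that range 48% of the members without a KRAB box fell, as did 53.4% of protein-coding genes, so falls were common at this level. Zfp207, also called BuGZ, binds Bub3 and serves the mitotic spindle, and it had the largest change of the 5, from 8563 and 8364 to 5687 and 5842 (log2 fold change -0.55, SE 0.04, adjusted p = 1.0e-09). Zfp106, an RNA-binding protein and the member with the most reads, went from 10240.3 and 10285 to 8624 and 8934 (log2 fold change -0.23, SE 0.04, adjusted p = 0.00017), with 26.1% of its exons under opposite-strand exons. The falls of Zfp706 and Zfp281 were 0.31 and 0.25 on the log2 scale (SE 0.04 each). The fall of Zfp740 by 0.10 (SE 0.03, adjusted p = 0.020) lost its call with library totals, with genes alone, with DESeq2, without genistein replicate 1 and without untreated replicate 1.

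Zfp91, a ubiquitin ligase, went from 4910 and 4857 to 3115 and 3262 (log2 fold change -0.62, SE 0.03, adjusted p = 1.3e-10), and 8.43% of its exons overlap another gene on the same strand. Zfp598, the ligase that marks collided ribosomes, had 1299.6 and 1337 counts untreated and 1085 and 1093 with genistein (log2 fold change -0.28, SE 0.05, adjusted p = 0.00010). Zfp622, a ribosome assembly factor, fell by 0.37 on the log2 scale (SE 0.05), and Zfp330, a nucleolar protein, by 0.35 (SE 0.04). Zfp451, a SUMO ligase, fell by 0.13 (SE 0.03, adjusted p = 0.0024), and that call was lost with library totals. Zfp638, an RNA-binding protein that also silences unintegrated retroviral DNA, went from 5823 and 5777 to 4864 and 5032 (log2 fold change -0.23, SE 0.03, adjusted p = 6.8e-06).

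RNA-binding members on the higher side were Zfp36 and Zfp346. Zfp36, known as tristetraprolin, speeds the decay of messenger RNAs with AU-rich elements, and it went from 275 and 265 to 412 and 368 (log2 fold change 0.53, SE 0.09, adjusted p = 4.5e-05). Zfp346, which binds double-stranded RNA, went from 570.4 and 554 to 694 and 745 (log2 fold change 0.35, SE 0.06, adjusted p = 9.2e-05). In both the genistein libraries lay above the untreated ones.

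Transcription factors without a KRAB box went both ways. Zfp143, which activates snRNA and many housekeeping promoters, fell from 708 and 701 to 449 and 454 (log2 fold change -0.64, SE 0.06, adjusted p = 1.1e-07). Zfp335 fell by 0.31 on the log2 scale (SE 0.06), with 28.3% of its exons under opposite-strand exons. Zfp462, a large protein with 33 fingers that is linked to heterochromatin, rose from 1705 and 1909 to 2371 and 2234 (log2 fold change 0.35, SE 0.05, adjusted p = 1.0e-05). Zfp217, a co-repressor partner, rose by a log2 fold change of 0.16 (SE 0.05, adjusted p = 0.016), a call lost with DESeq2 and without untreated replicate 1. Zfp521 had 272 and 267 counts untreated and 222 and 241 with genistein (log2 fold change -0.22, SE 0.09, adjusted p = 0.048), and 7 of the 10 other fits ended that call.

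Several abundant regulators did not pass the test in the scaling used here. Zfp148, a factor of GC-rich promoters, had 3360.5 and 3379 counts untreated and 3105 and 3395 with genistein (log2 fold change -0.05, SE 0.04, adjusted p = 0.26), and passed it without genistein replicate 2 (-0.12, adjusted p = 0.026). Zfp292 had 3078 and 3125 counts untreated and 3237 and 3214 with genistein (log2 fold change 0.06, SE 0.03, adjusted p = 0.15), and passed with genes alone (0.10, adjusted p = 0.013) and with library totals (0.13, adjusted p = 0.0076). Zfp407 had log2 fold change 0.01 (SE 0.04), Zfp384 -0.01 (SE 0.06) and Zfp827, a telomere-linked factor, -0.10 (SE 0.06). Zfp410, which is known mainly as the activator of the NuRD gene Chd4, had 951 and 915 counts untreated and 1006 and 942 with genistein (log2 fold change 0.06, SE 0.06, adjusted p = 0.33), or 0.13 with library totals (adjusted p = 0.048). Chd4 itself fell from 15443 and 15279 to 11274 and 11222 (log2 fold change -0.45, SE 0.05).

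**Figure D3:**
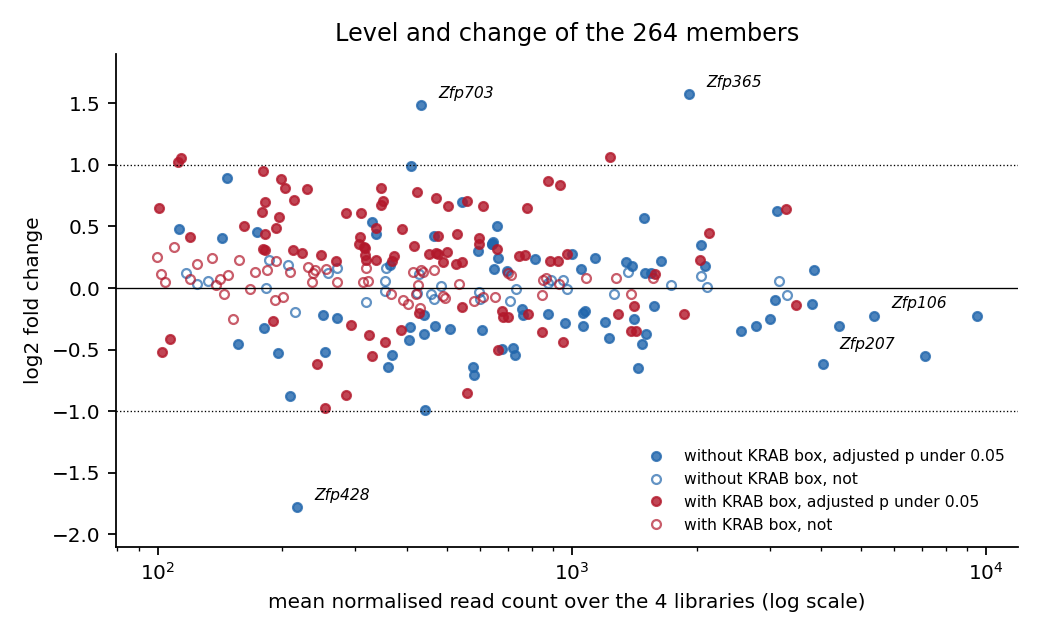
Log2 fold change (vertical axis) of each of the 264 members against its mean normalised read count over the 4 libraries (horizontal axis, logarithmic), with filled points for adjusted p under 0.05 and dotted lines at the fold threshold. KRAB members (red) lie mostly above 0 and at lower counts, while the most abundant members, such as Zfp106 and Zfp207 without a KRAB box (blue), lie below 0.

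Members were then grouped by position. Joining Zfp genes at most 500 kb apart gave 12 clusters with at least 5 members, which held 107 members and 87 of the 150 KRAB members. The median log2 fold change was 0.16 inside these clusters and 0.06 for the 157 members outside. The cluster counts that follow stand beside 38.6% of all members and 33.5% of all genes that rose, and 28.0% and 38.2% that fell. Of the 150 KRAB members, 45.3% rose and 18.0% fell, with a median of 0.16. Most members inside the clusters carry a KRAB box, so position was not separated from the box in these comparisons. All 5 members of the cluster at chr4:146449023-147848366 rose, with a median of 0.41, but 4 of them share over 10% of their words with other genes, so their counts are not independent. Zfp933, which shares none, went from 406 and 413 to 455 and 539 (log2 fold change 0.28, SE 0.08, adjusted p = 0.0071). Zfp992, which shares words with other genes, went from 597 and 617 to 951 and 959.6 (log2 fold change 0.65, SE 0.06).

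In the cluster at chr13:67121660-67755228, from which 5 promoter stretches are printed above, 6 of 10 members rose and 1 fell, with a median of 0.41. Genes with the same word in their promoters went different ways there. Zfp458 rose by a log2 fold change of 1.05 and Zfp953 rose from 177 and 157 to 278 and 308 (log2 fold change 0.81, SE 0.11, adjusted p = 3.7e-06). Zfp595, by contrast, fell from 303 and 343 to 257 and 267 (log2 fold change -0.30, SE 0.09, adjusted p = 0.0089). Zfp759 and Zfp85 had 0.26 and 0.33 (SE 0.17 and 0.18) and did not pass the test. The value of Zfp759 ran from 0.018 without untreated replicate 2 to 0.55 without untreated replicate 1, where it passed (adjusted p = 0.0080). Zfp85 had 99.9 and 93.2 counts untreated and 94.7 and 150 with genistein, so its groups overlapped.

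The cluster at chr17:21008903-23599487 was the largest, with 22 members, of which 15 rose and 2 fell (median 0.31). It holds Zfp945 and Zfp994, the latter going from 414 and 434 to 721 and 664 (log2 fold change 0.71, SE 0.07, adjusted p = 1.0e-07). In a second cluster of that chromosome, at chr17:32765496-33631779, 6 of 10 members rose and 2 fell (median 0.26). Chromosome 7 held 6 of the 12 clusters, and 4 of these had medians below 0. The lowest was at chr7:42473386-43593235, where 1 of 5 KRAB members rose and 3 fell (median -0.15), with Zfp975 on the higher side (log2 fold change 0.29, SE 0.11, adjusted p = 0.031).

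**Figure D4:**
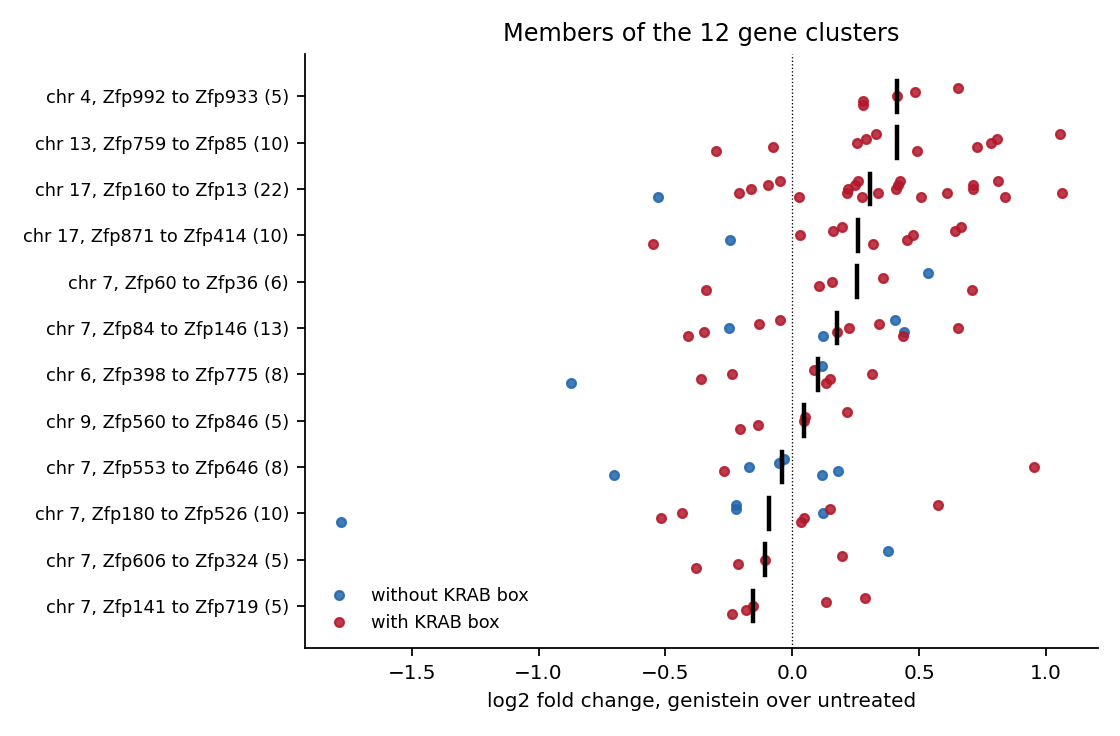
Log2 fold change (horizontal axis) of the members of 12 gene clusters, ordered by their median (black bar), with each point a gene, the number of members in brackets and KRAB members in red. The cluster of Zfp992 to Zfp933 on chromosome 4 lies wholly above 0, while that of Zfp141 to Zfp719 on chromosome 7 has the lowest median, -0.15.

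The promoter words were set beside the changes as a description. Of the 24 KRAB members with GAGTGACA or its reverse, 13 rose, 0 fell and 11 did not pass the test, with a median log2 fold change of 0.22. The 107 matched KRAB members without it had 47 that rose and 22 that fell, with a median of 0.15. Among all genes tested 33.5% rose and 38.2% fell, and among all KRAB members 45.3% and 18.0%. The stretches with GAGTGACA or its reverse printed above all come from members that rose, and members with it that did not pass are not printed. The 24 are not independent, since 7 of them share over 10% of their words with another gene, and 14 of them lie on chromosomes 2 and 17. Zfp442 had 310 and 312 counts untreated and 376 and 350.2 with genistein (log2 fold change 0.22, SE 0.08, adjusted p = 0.023). Zfp937, with the identical stretch, went from 217 and 233 to 267 and 274 (log2 fold change 0.27, SE 0.09, adjusted p = 0.018). The genes with the other identical stretch did not all do so. Zfp970 rose (log2 fold change 0.33), while Zfp966 (0.08) and Zfp971 (0.05) did not pass the test. Of the 19 KRAB members with AATGTAGT or its reverse, 6 rose, 3 fell and 10 did not pass the test, with a median of 0.11. The 112 matched KRAB members without that word had 54 that rose and 19 that fell, with a higher median of 0.19.

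The partners of the KRAB box went mostly down. A list of 18 co-repressor genes had 14 that fell, 2 that rose and 2 that did not pass the test, with a median log2 fold change of -0.41. For comparison, 38.2% of all genes fell, as did 53.4% of protein-coding genes with a raw sum of 3000 or more, the range in which all of the 18 lie. Trim28, which binds the KRAB box itself, fell from 12023 and 11626 to 6178 and 6024 (log2 fold change -0.95, SE 0.04, adjusted p = 6.9e-12). The HP1 genes Cbx3, Cbx1 and Cbx5 fell by 0.73, 0.65 and 0.38 on the log2 scale, and Chd3 by 0.68. Sumo2, whose product modifies Trim28, fell by 0.77, and Uhrf1 and Dnmt1, which maintain DNA methylation, fell by 0.69 and 0.57. Setdb1 had 2797 and 2822 counts untreated and 2694 and 2641 with genistein (log2 fold change -0.07, SE 0.04, adjusted p = 0.072), and Morc2a a log2 fold change of -0.05 (SE 0.03).

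Atf7ip, the cofactor that stabilises Setdb1, rose from 1480.4 and 1605 to 3080.3 and 2940.4 (log2 fold change 0.97, SE 0.04, adjusted p = 1.1e-11). Resf1, a Setdb1-linked silencer of retroelements, rose by a log2 fold change of 0.34 (SE 0.03). The HUSH complex genes Mphosph8, Fam208a and Pphln1 fell by 0.38, 0.31 and 0.31 on the log2 scale.

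**Figure D5:**
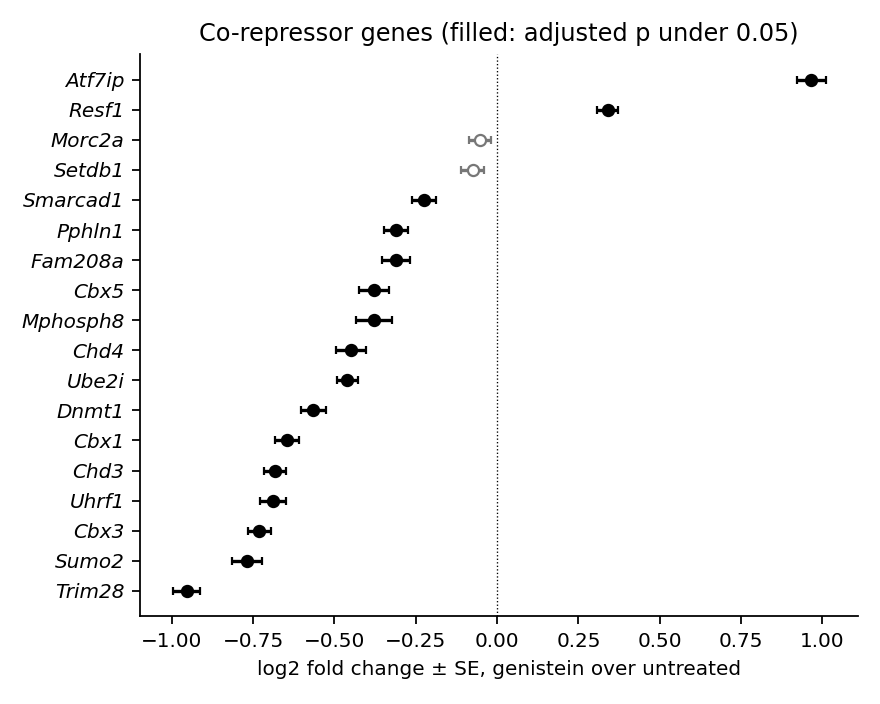
Log2 fold change with its standard error (horizontal axis) for the 18 co-repressor genes that work with KRAB zinc fingers, filled where the adjusted p was under 0.05. Trim28 stands lowest at -0.95, Setdb1 and Morc2a near 0, and Atf7ip highest at 0.97.

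Retroelement families known as targets of KRAB zinc fingers were read from the repeat rows of the table. Of 39 listed entries 34 were tested, and 29 rose and 5 fell, against 76.3% and 2.86% of all 1118 repeats tested. All 23 tested entries of the young LINE families L1MdA and L1MdTf rose, and 6 of 11 endogenous retrovirus entries did. The LINE entries include 5′ parts of the same subfamilies, and reads with many alignments were kept, so these entries are not independent. The retrovirus entries split widely. MMVL30-int went from 34299 and 35674 to 81379 and 79241 (log2 fold change 1.20, SE 0.04), and IAPEz-int from 12799 and 13069.6 to 16322 and 16594 (log2 fold change 0.35, SE 0.05). MuLV-int fell from 1870.0 and 1908 to 1393 and 1309.8 (log2 fold change -0.48, SE 0.05). MMETn-int and ETnERV-int fell by 1.54 and 1.28 on the log2 scale (SE 0.05 and 0.04). How these changes relate to those of any Zfp gene was not tested.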

How the data were processed

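Per the study's methods, the authors depleted ribosomal RNA, trimmed paired reads with Trim Galore, aligned them to mm10 with STAR, keeping reads with up to 100 alignments, and used TEtranscripts for counting. The deposited table holds raw counts for each gene and each repeat subfamily. A row naming no gene held 0.00208% to 0.00314% of a library and was left out. The counts were fitted in one table with edgeR 4.0.16 (R 4.3.3): filterByExpr, TMM scaling, the quasi-likelihood test and Benjamini-Hochberg adjustment over all 17358 kept entries. The standard error was the size of the log2 fold change divided by the square root of F. Thresholds were an adjusted p under 0.05, a log2 fold change beyond 1 and a mean normalised count over 100. The test was checked on simulated data: 100 of 100 entries changed 2-fold and 100 of 100 changed 4-fold were called. There were 4 false calls, with 17035 simulated entries tested. The counts were drawn with the spread fitted to these data. The check therefore covers neither smaller changes nor a spread between libraries that the fit misses.

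KRAB boxes, fingers and shared words came from GENCODE M21 transcripts translated by their annotated coding ranges, in place of RefSeq proteins. Coordinates, exon lengths, gene types and exon overlaps are from the same annotation on GRCm38, with positions counted from 1. The study's methods name an earlier GENCODE release for the counting, so exon lengths and overlaps may differ from those of the counted genes. The members, lists, clusters and words were chosen with earlier results of these data known. Named were members past all thresholds with groups that do not overlap, the 5 highest per kilobase, the 3 highest not called, a list of known roles, and the genes beside the count minimum. Genes named for their promoter stretch, cluster or near-threshold change were chosen after their values were seen. Same-numbered libraries did not deviate together (r = -0.03), so the fit has no pairing. Alternatives covered scaling, filter, tool (DESeq2 1.42.0), thresholds, the member rule, the replicate number as a block, and single libraries left out. No molecular identifiers were counted, so reads may repeat molecules.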

Additional observations from a re-analysis of the deposited data

How the results depend on the processing

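Under RLE factors, DESeq2, other scalings, no filter and each left-out library, the counts of members that rose or fell stayed within 1.5 times their values. DESeq2 called 74 higher and 60 lower, 49 and 19 of them with a KRAB box. Past all thresholds, lower members numbered 2 with DESeq2, 3 without the filter and 2 without each library in turn, where Zfp593, Zfp1 or Zfp961 crossed the fold limit. Testing against a log2 fold change of 1 left 2 higher members, and a mean count over 1000 left 2 higher and 0 lower. The median of members was 0.14 with genes alone, 0.17 with library totals, 0.075 without the filter, 0.057 for a raw sum of 1000 or more and 0.070 to 0.097 without single libraries. The KRAB median was 0.20 with genes alone, 0.23 with library totals and 0.15 to 0.19 without single libraries. The median of the other members was 0.017 with genes alone, 0.042 with library totals, -0.053 without the filter and -0.045 to -0.013 without single libraries. The summed member count without Zfp106 had a log2 ratio of 0.013. The cause of these shifts was not tested.

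Signs turned in 7 of the 43 named members, none of which passed the test. These were Zfp148 (0.017 with library totals, -0.12 to 0.016 without single libraries), Zfp384 (0.036 with genes alone, 0.062 with library totals, -0.050 to 0.026 without single libraries), Zfp407 (-0.0011 with DESeq2, -0.0014 with RLE factors, -0.018 without the filter, -0.032 to 0.053 without single libraries), Zfp57 (0.022 with library totals), Zfp809 (0.00064 with library totals), Zfp882 (-0.036 to 0.26 without single libraries) and Zfp932 (-0.0011 without the filter, -0.00024 to 0.042 without single libraries). Zfp445 lost its call with DESeq2, RLE factors, no filter, the replicate block, without genistein replicate 2 and without untreated replicate 2. With the replicate number as a block, 100 members rose and 72 fell (median 0.10), and Zfp445 and Zfp521 lost their calls. Same-numbered libraries were not shown to be paired. Zfp759, with 400 raw counts, had a standard error of 0.17, so small changes at that depth were not detectable.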

Other observations

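Related zinc finger families were counted beside the members. Of 18 Zkscan and Zscan genes tested, which carry a SCAN domain and often a KRAB box, 13 rose and 3 fell, with a median log2 fold change of 0.28. Of 40 Zbtb genes, which carry a BTB domain, 15 rose and 9 fell (median 0.09), and of 26 genes named Zfp with a number and letters, 9 rose and 6 fell (median 0.08). The 56 tested Zfp rows under the count minimum had 21 that rose and 5 that fell, with a median of 0.25. Among all genes tested 33.5% rose and 38.2% fell. Differences between these families were not tested.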
